A study of Homo sapiens with 12 samples.

Results

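The histone genes of the HIST clusters were followed in HEL cells, an established human erythroleukaemia line, by RNA sequencing of bulk cultures. Members were the genes of the deposited count table whose name starts with HIST1H, HIST2H, HIST3H or HIST4H, which gave 73 of 26481 genes. Of these, 21 reached 10 or more counts in at least 2 libraries and are described singly, and 20 of the 21 were dense enough for a test. By type, the count rule was met by 2 of 6 H1 genes, 6 of 18 H2A genes, 9 of 20 H2B genes, 3 of 14 H3 genes and 1 of 15 H4 genes. By cluster, it was met by 17 of 56 HIST1 genes on chromosome 6, 3 of 13 HIST2 genes and 1 of 3 HIST3 genes on chromosome 1, and not by the single HIST4 gene on chromosome 12.

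All 12 libraries came from HEL cells that carried a lentiviral DNA barcode library, so each culture was a mixture of barcoded clones. Non-treated cells (NT, n = 2) were grown with the solvent DMSO. The 3 other groups were cultures regrown for about 30 days after 72 h with drug: doxorubicin at 1.8 µM, which damages DNA and blocks topoisomerase (Doxo, n = 3), the same doxorubicin with the nucleoside analogue cytarabine at 6 µM (Doxo+Cyta, n = 3), and both drugs with the DNA methylation inhibitor decitabine at 0.1 µM (Doxo+Cyta+DAC, n = 4). The drugs were no longer present when RNA was taken, and there was no group with decitabine alone among these libraries. Below, the words with decitabine stand for the Doxo+Cyta+DAC group. Only its comparison with Doxo+Cyta differed by decitabine alone. Against Doxo cytarabine differed as well, and against NT every drug did. In bulk cultures fewer cells of one kind and less RNA per cell cannot be told apart.

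Histones are the proteins around which DNA is wound: H2A, H2B, H3 and H4 form the core of the nucleosome, and H1 binds the linker DNA between nucleosomes. Most of the clustered genes are replication-dependent, which means that they are transcribed in S phase to supply new chromatin, under control of the coactivator NPAT. Their mRNAs have no introns and usually no poly(A) tail, and end instead just after a short stem-loop that is bound by SLBP and cut with the help of U7 snRNA. When cells leave the cycle and differentiate, some of these genes can also give polyadenylated mRNA from a site further downstream, and replication-independent variants such as H1F0, H2AFZ and H3F3B, which lie outside the clusters, take over part of the supply. The libraries were made with a TruSeq RNA kit, whose usual protocol selects poly(A) RNA, so the levels below need not be those of total histone mRNA.

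The stem-loop is the feature that the members have in common, and it is shown because the members were divided by it. It was searched in the genome sequence (GRCh38) under each gene model as the histone 3′ stem-loop consensus of 16 bases, with all 6 base pairs of the stem formed (G-T pairs allowed) around a loop of 4 bases. In the last 150 bases of the model, on the gene's strand, it was found in 58 of 67 members with a single locus (86.6%) and in 1 of 4534 other single-locus genes of chromosomes 1, 6 and 12 (0.0221%). With the whole model searched, 63 members held it, in 7 forms, of which 1 form accounted for 37 members. The stem is in capitals and the loop in lower case, 5′ to 3′ on the gene's strand:
HIST1H1C, chr6:26055744-26055759, minus strand, also the form of HIST2H2BE, HIST1H2AC, HIST1H3C and HIST1H3H: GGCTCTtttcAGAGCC
HIST2H2AC, chr1:149887391-149887406, plus strand, found in no other member: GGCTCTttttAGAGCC
HIST1H4I, chr6:27139654-27139669, plus strand, shared by 2 members: GGCCCTttttAGGGCC

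The members fell into 3 classes by where their models end, a division made after their values were known. In 44 members every model ended within 30 bases of the stem-loop. In 19 members the deposited model, or a GENCODE 44 transcript of the gene, ran further; examples are HIST2H2BE, whose only exon continued for 1728 bases, HIST1H2BK, whose deposited model had an extra exon ending 8073 bases downstream, and HIST1H2AC, with a GENCODE transcript ending 14432 bases downstream. In 10 members no stem-loop was found.

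Levels differed by class. The count rule was met by 9 of 44 members that end at the stem-loop (20.5%) and by 12 of 19 with a model past it (63.2%). Median levels over the 12 libraries, in CPM per kb (counts scaled to library size, CPM, per kilobase of the deposited model), were 0.315 and 1.05 in the same order. None of the 10 without a stem-loop met the rule, but 6 of them share all exon bases with another gene name, so that their zeros may come from the counting, and the other 4 had a median of 0.115 CPM per kb. Deposited models had a median length of 460 bases in the first class and 500 bases in the second. HIST1H1C, which encodes a linker histone, ended at its stem-loop and yet had the highest mean of all members over the 12 libraries, at 105.9 CPM per kb. This order did not hold in Doxo+Cyta+DAC, where HIST1H1C (13.1 to 30.7 CPM per kb) was below HIST1H2BK (21.6 to 32.4 CPM per kb) in each of the 4 libraries. Over all libraries it was followed by HIST1H2BK at 30.6 CPM per kb and HIST3H2A at 14.4 CPM per kb, both core histone genes with models past the loop, and then by HIST1H2AC at 6.39 and HIST2H2BC at 3.83 CPM per kb. The remaining 16 members that met the count rule lay between 0.366 (HIST1H1B) and 3.24 CPM per kb (HIST1H3H).

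**Figure D1:**
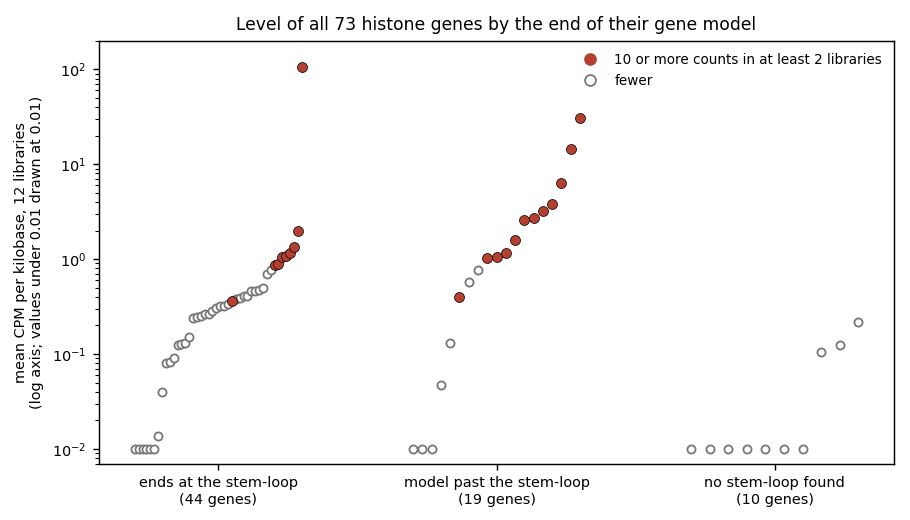
Mean level of each of the 73 histone genes over the 12 libraries (CPM per kb, log axis), grouped by whether the gene model ends at the stem-loop (44 genes), runs past it (19 genes) or holds none (10 genes, of which 6 share all exon bases with another gene name and were listed at 0); each point is a gene. Filled points met the count rule: 9, 12 and 0 genes, with HIST1H1C at 105.9 CPM per kb as the highest point.

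Total counts per library were 12763582 to 19106235, so that 3 counts, taken as the limit that a count of 0 allows, stood for 0.157 to 0.235 CPM. The HEL markers (8 erythroid and megakaryocytic genes) summed to 5853 to 10410 CPM. Lymphoid, fibroblast and epithelial markers summed to at most 0.158, 1.33 and 1.63 CPM. The Doxo library of replicate 4 stood apart from replicates 5 and 6 for several members. Calls of members in comparisons with Doxo that change without it are given with and without it. The counts over other gene lists are given with it only.

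HIST1H1C (H1-2, chr6:26055740-26056471, minus strand) had the largest change of the tested members with decitabine against Doxo and against Doxo+Cyta; against NT the fitted log2 fold changes of HIST2H2AC (called) and the sparse HIST1H1B (not called) were larger in size. Its share of all member counts was 53.9% in NT, 66.9% after Doxo, 65.7% after Doxo+Cyta, but 21.5% after Doxo+Cyta+DAC. Its level was 62.2 and 56.0 CPM in NT (replicates 1 and 2) and 61.5, 154.9 and 157.4 CPM in Doxo (replicates 4, 5 and 6). It was 114.3, 129.3 and 137.5 CPM in Doxo+Cyta (19, 20 and 22) and 13.1, 22.5, 12.2 and 9.58 CPM in Doxo+Cyta+DAC (30 to 33). All 4 libraries that had received decitabine lay below every other library, whereas Doxo replicate 4 lay at the NT level and the 5 other chemotherapy libraries above it. HIST1H1C was 8.86-fold lower in Doxo+Cyta+DAC than in Doxo+Cyta (log2 fold change −3.15, SE 0.30, adjusted p = 1.41e-06 by edgeR's quasi-likelihood test, which applies to all adjusted p-values here). It was 8.69-fold lower than in Doxo (−3.12, SE 0.30, adjusted p = 2.12e-06) and 4.12-fold lower than in NT (−2.04, SE 0.33, adjusted p = 0.000204). Doxo+Cyta against NT gave a log2 fold change of 1.10 (SE 0.35) and Doxo against NT 1.08 (SE 0.35), neither called (adjusted p = 0.115 and 0.0652), although DESeq2 called both. Without Doxo replicate 4 the latter was 1.37 (SE 0.26) and was called (adjusted p = 0.00409). Doxo and Doxo+Cyta differed by −0.03, with a 95% interval of −0.68 to 0.63.

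The 250 bases before the start of HIST1H1C in RefSeq (GRCh38.p14) are shown because this gene carried most of the member counts in every group but Doxo+Cyta+DAC. Capitals mark matches, on either strand, to TATAAA (letters of the TATA box), the letters CCAAT, the letters ATTTGCAT (the octamer of H2B promoters) and the letters AAACACA (the H1 box), which do not overlap here:
HIST1H1C, chr6:26056471-26056720, minus strand: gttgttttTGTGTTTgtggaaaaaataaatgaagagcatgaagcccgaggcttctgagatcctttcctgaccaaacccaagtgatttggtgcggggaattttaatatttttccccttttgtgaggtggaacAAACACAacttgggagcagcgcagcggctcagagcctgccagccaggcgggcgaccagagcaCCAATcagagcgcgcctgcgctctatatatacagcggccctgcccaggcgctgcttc
An H1 box ended 112 bases before the start and a CCAAT box 52 bases before it. In promoters from 250 bases before to 50 bases after the start, the H1 box letters were found in 6 of 6 H1 genes against 5.64% of all 35116 promoters, and the CCAAT letters in 84.6% of the 65 members with a sequence against 34.6%. The octamer was found in 11 of 16 H2A and 14 of 18 H2B promoters against 1.77%, and TATAAA in 66.2% of members against 11.5%.

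HIST1H1B (H1-5), the other H1 gene that met the count rule, was near the limit of detection. Its counts were 1 and 2 in NT, 7, 5 and 0 in Doxo, 0, 5 and 2 in Doxo+Cyta, and 6, 11, 15 and 2 in Doxo+Cyta+DAC. It reached 10 counts in the last group only. Summed over libraries, 34 counts in Doxo+Cyta+DAC against 3 in NT gave a depth-corrected ratio of 6.56 (95% exact interval 2.06 to 33.4, counting error only), and no comparison was called (smallest adjusted p = 0.0607, against NT). The 4 H1 genes under the count rule summed to 2 to 11 counts a library.

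Linker histone genes outside the clusters were compared on the same scale. H1F0, the replacement linker histone of differentiated and slowly dividing cells, was 999.1 and 906.7 CPM in NT, and 755.5, 1261 and 1251 CPM in Doxo, with replicate 4 again the lowest. It was 1441, 1166 and 1370 CPM in Doxo+Cyta and 210.2, 223.3, 254.3 and 248.9 CPM in Doxo+Cyta+DAC. The decitabine libraries were thus below all others, as for HIST1H1C, and the fold change was 5.66 against Doxo+Cyta (log2 −2.50, SE 0.16, adjusted p = 6.78e-08) and 4.07 against NT (−2.02, SE 0.17, adjusted p = 1.59e-06), both lower with decitabine. H1FX, a further linker variant, fell by 1.35 on the log2 scale against Doxo+Cyta (SE 0.14, adjusted p = 3.35e-06), with 154.2 to 176.4 CPM in the decitabine libraries against 271.6 to 544.0 CPM in the rest. Per length, over all libraries, H1F0 was at 360.7 CPM per kb, H1FX at 190.1 CPM per kb and HIST1H1C at 105.9 CPM per kb. In Doxo+Cyta+DAC the order of H1F0 above H1FX did not hold in every library.

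**Figure D2:**
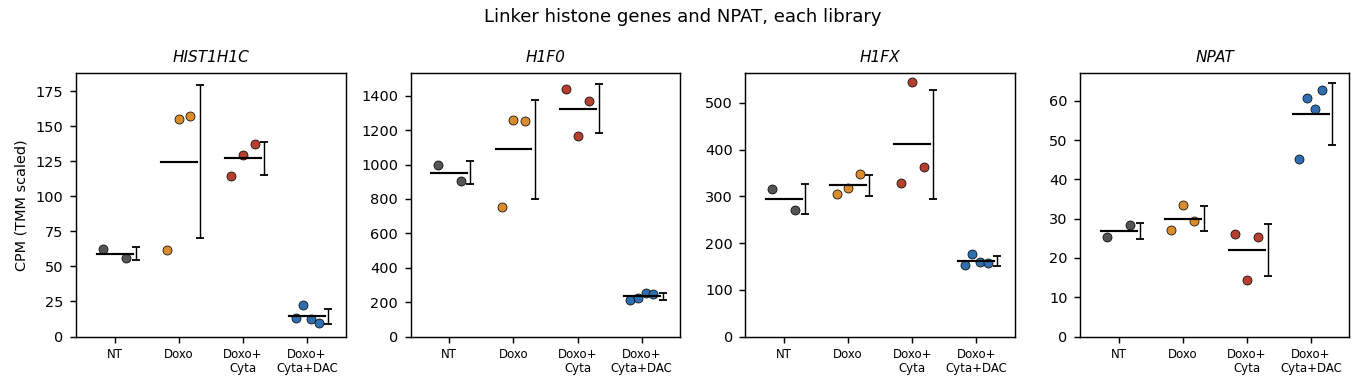
CPM of HIST1H1C, H1F0, H1FX and NPAT in each library (points), with the group mean (line) and SD (bar beside it), for NT (n = 2), Doxo (n = 3), Doxo+Cyta (n = 3) and Doxo+Cyta+DAC (n = 4). The 3 linker histone genes are lowest in the decitabine libraries (HIST1H1C 9.58 to 22.5 CPM), where NPAT is highest (45.2 to 62.7 CPM).

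With decitabine added, members moved in both directions. In Doxo+Cyta+DAC against Doxo+Cyta, 3 tested members were higher and 7 lower of 20, where 60.3% of all 14164 tested genes were called (29.8% higher, 30.5% lower). Against Doxo the counts were 3 higher and 8 lower (59.5% of all genes called, 29.1% higher and 30.4% lower), and against NT 4 higher and 2 lower (48.7%, with 24.9% higher and 23.7% lower). The 10, 11 and 6 called of 20 made up no larger a share than over all genes, and the median log2 fold changes of −0.21, −0.05 and 0.04 were near the medians of all genes (0.00, −0.01 and 0.02). The 3 comparisons share the Doxo+Cyta+DAC libraries.

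**Figure D3:**
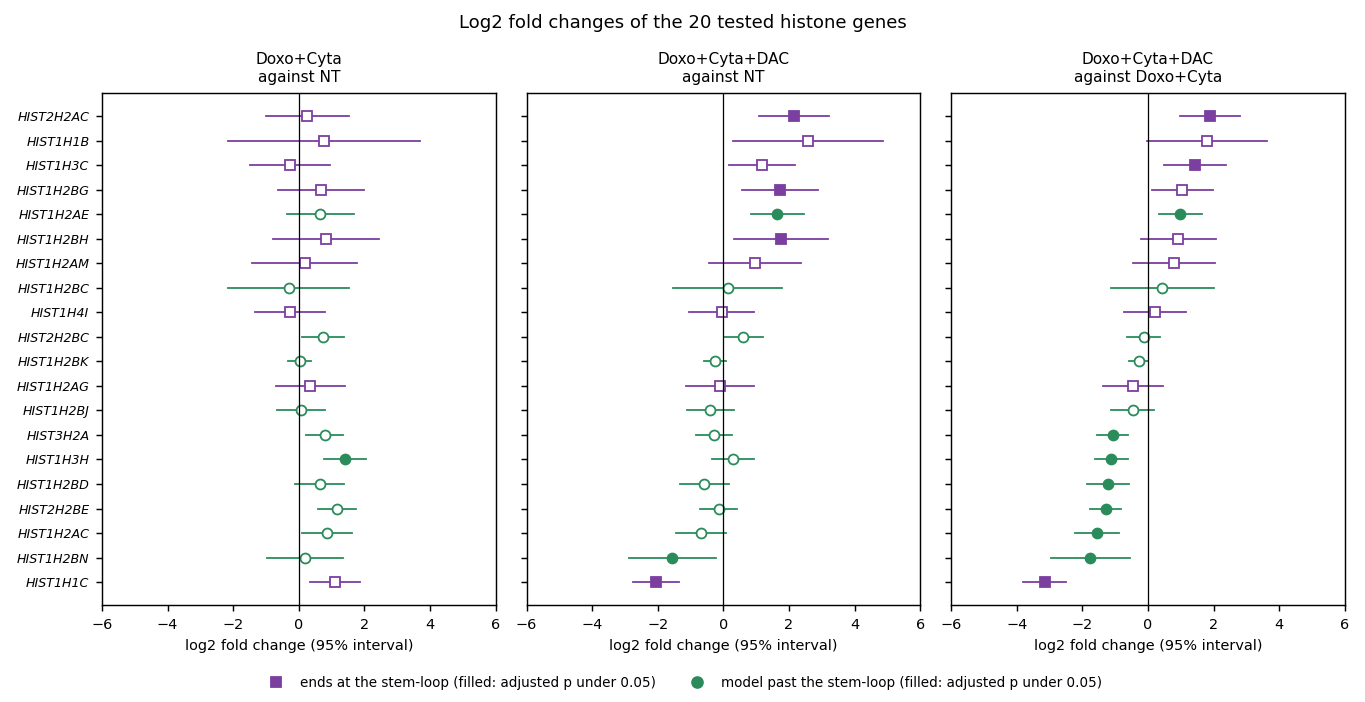
Log2 fold changes of the 20 tested histone genes, with 95% intervals, in Doxo+Cyta against NT, Doxo+Cyta+DAC against NT and Doxo+Cyta+DAC against Doxo+Cyta; squares are genes whose model ends at the stem-loop, circles genes with a model past it, filled where the adjusted p was under 0.05. In the third panel the 7 lower genes are HIST1H1C and 6 genes with a model past the loop.

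The directions are also given by class. Of the 11 tested members with a model past the stem-loop, 6 were lower and 1 was higher against Doxo+Cyta (median log2 fold change −1.07), 7 were lower and 0 higher against Doxo (−0.72), and 1 was lower and 1 higher against NT (−0.26). Of the 9 that end at the stem-loop, 2 were higher and 1 lower against Doxo+Cyta (median 0.93), 3 and 1 against Doxo (0.97) and 3 and 1 against NT (1.17), and the lower one was HIST1H1C each time. HIST1H2AE, whose deposited model ran 51 bases past the loop while its GENCODE transcript ended 5 bases past it, was the higher gene of the first class. Of all genes 29.8% were higher and 30.5% lower against Doxo+Cyta, 29.1% and 30.4% against Doxo, and 24.9% and 23.7% against NT. The medians over all genes were 0.00, −0.01 and 0.02 in this order. The difference between the classes was not tested. Of the members that end at the stem-loop, HIST1H3C, HIST1H2BG and HIST1H1B reached 10 counts in Doxo+Cyta+DAC libraries only, so their passing the count rule already depended on a high value there. HIST2H2AC, HIST1H2BH and HIST1H2AM reached 10 counts in too few other libraries to pass without that group. The counts by class are therefore descriptions.

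The core histone genes that fell with decitabine were H2A, H2B and H3 genes with downstream ends. HIST2H2BE, an H2B gene, was 2.37 and 2.44 CPM in NT, 3.28, 4.31 and 5.80 CPM in Doxo, 6.18, 4.87 and 4.95 CPM in Doxo+Cyta and 2.02, 2.68, 1.84 and 2.22 CPM in Doxo+Cyta+DAC. The decitabine libraries overlapped NT and lay below all chemotherapy libraries: the log2 fold change was −1.29 against Doxo+Cyta (SE 0.22, adjusted p = 0.000203), −1.04 against Doxo (SE 0.23, adjusted p = 0.00132) and −0.14 against NT (SE 0.27, adjusted p = 0.684). HIST3H2A, an H2A gene of the small HIST3 cluster, had the same order, with 6.68 and 5.12 CPM in NT, 6.49, 7.56 and 9.97 CPM in Doxo, 10.4, 11.8 and 8.49 CPM in Doxo+Cyta and 5.08, 6.39, 4.62 and 3.32 CPM in Doxo+Cyta+DAC. It fell by 1.07 on the log2 scale against Doxo+Cyta (SE 0.22, adjusted p = 0.000807) and by 0.72 against Doxo (SE 0.22, adjusted p = 0.0127), the latter not called without Doxo replicate 6 (adjusted p = 0.0885).

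HIST1H2AC, an H2A gene, was 2.73 and 2.92 CPM in NT and 3.07, 5.59 and 5.11 CPM in Doxo, replicate 4 being near NT. It was 4.20, 5.27 and 5.93 CPM in Doxo+Cyta and 1.90, 2.61, 0.839 and 1.74 CPM in Doxo+Cyta+DAC, where every library was below every NT library. It fell by 1.55 against Doxo+Cyta (SE 0.31, adjusted p = 0.000624), while the log2 fold change of −0.69 against NT was not called (SE 0.36, adjusted p = 0.125). HIST1H2BD, an H2B gene, ranged from 2.47 to 4.10 CPM in the 6 chemotherapy libraries and from 0.712 to 1.86 CPM in the decitabine libraries (log2 fold change −1.22 against Doxo+Cyta, SE 0.30, adjusted p = 0.00318), with NT at 2.21 and 1.79 CPM. HIST1H2BN, another H2B gene, had 1, 3, 1 and 5 counts in the decitabine libraries against 7 to 11 in NT, 8 to 18 in Doxo and 7 to 11 in Doxo+Cyta. It fell by 2.16 on the log2 scale against Doxo (SE 0.53, adjusted p = 0.0032) and by 1.75 against Doxo+Cyta (SE 0.56, adjusted p = 0.0143). Its call against NT (−1.56, SE 0.62, adjusted p = 0.0493) was lost under several other settings, with adjusted p-values up to 0.257.

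HIST1H2BK, the most abundant core histone member, moved little. Its level was 27.3 and 25.8 CPM in NT, 28.8, 27.6 and 28.4 CPM in Doxo, 24.4, 29.4 and 27.3 CPM in Doxo+Cyta and 18.1, 27.2, 23.9 and 19.6 CPM in Doxo+Cyta+DAC. The decrease of 0.35 on the log2 scale against Doxo was called (SE 0.14, adjusted p = 0.0435), but not without Doxo replicate 4 (−0.33, SE 0.16, adjusted p = 0.0863) or in 10 more of 18 other settings, and the log2 fold change against Doxo+Cyta was −0.29 (95% interval −0.58 to 0.01). HIST2H2BC, annotated as a transcribed H2B pseudogene, was 1.59 and 1.55 CPM in NT, 1.54 to 2.59 CPM in Doxo, 2.50 to 2.73 CPM in Doxo+Cyta and 2.06 to 3.23 CPM in Doxo+Cyta+DAC, with no comparison called.

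**Figure D4:**
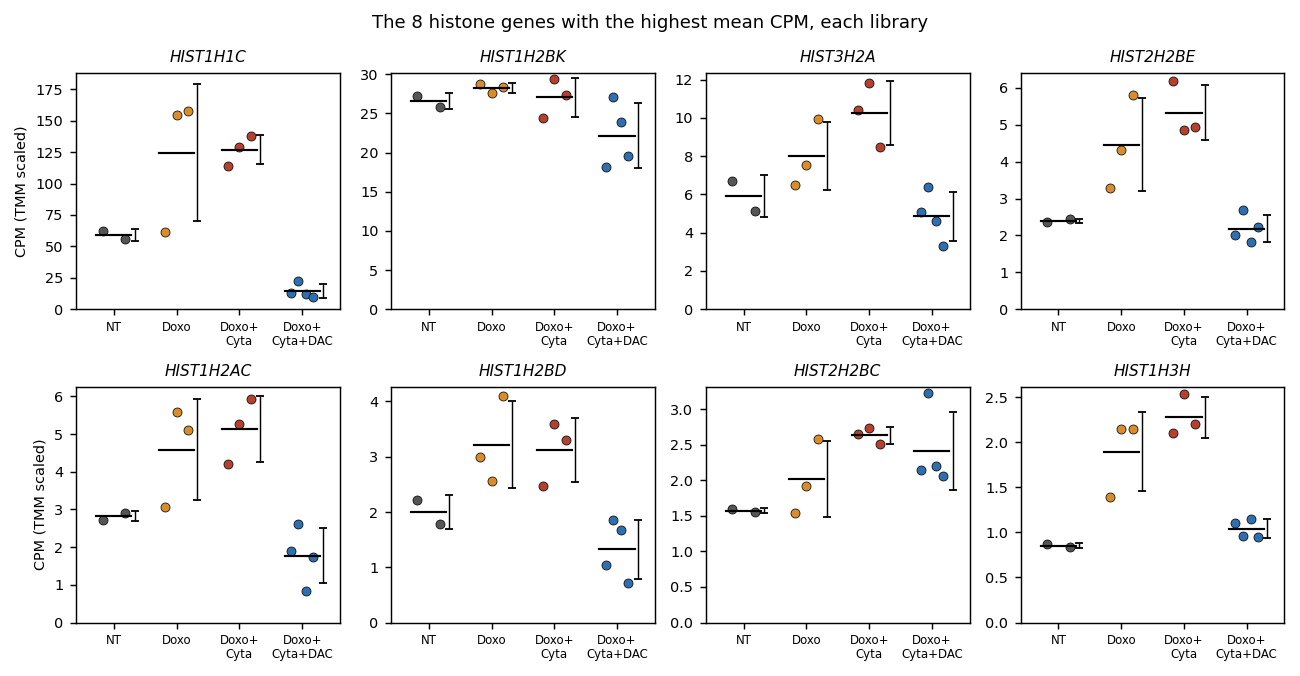
CPM in each library (points), with the group mean (line) and SD (bar beside it), of the 8 members with the highest mean CPM, for NT (n = 2), Doxo (n = 3), Doxo+Cyta (n = 3) and Doxo+Cyta+DAC (n = 4). HIST1H1C, HIST3H2A, HIST2H2BE, HIST1H2AC, HIST1H2BD and HIST1H3H have their highest libraries in the chemotherapy groups and fall with decitabine. HIST1H2BK stays between 18.1 and 29.4 CPM.

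HIST2H2BE has a divergent partner, HIST2H2AC, an H2A gene on the other strand. Their deposited models start 292 bases apart, and the partner moved the other way. HIST2H2AC was 0.309 and 0.476 CPM in NT, 0.488, 0.233 and 0.505 CPM in Doxo, 0.247, 0.867 and 0.305 CPM in Doxo+Cyta and 2.02, 2.27, 1.47 and 1.27 CPM in Doxo+Cyta+DAC, where each library was above all 8 others. It rose 3.73-fold against Doxo+Cyta (log2 1.90, SE 0.43, adjusted p = 0.00157), 4.30-fold against Doxo (2.10, SE 0.44, adjusted p = 0.000932) and 4.46-fold against NT (2.16, SE 0.50, adjusted p = 0.00289). The call against NT was lost without NT replicate 1 (adjusted p = 0.0535). HIST2H2AC would not have met the count rule without the Doxo+Cyta+DAC libraries. Its values, and the contrast with HIST2H2BE, thus describe a gene admitted by the group in which it was high. Windows of 100 bases shared with another gene made up 14.8% of HIST2H2AC and 2.6% of HIST2H2BE, so part of the HIST2H2AC counts could belong to a near-identical H2A gene.

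The bases between the starts of both deposited models are shown from the HIST2H2BE side to the HIST2H2AC side, with the same motifs in capitals:
HIST2H2BE/HIST2H2AC, GRCh38, chr1:149886683-149886974, plus strand: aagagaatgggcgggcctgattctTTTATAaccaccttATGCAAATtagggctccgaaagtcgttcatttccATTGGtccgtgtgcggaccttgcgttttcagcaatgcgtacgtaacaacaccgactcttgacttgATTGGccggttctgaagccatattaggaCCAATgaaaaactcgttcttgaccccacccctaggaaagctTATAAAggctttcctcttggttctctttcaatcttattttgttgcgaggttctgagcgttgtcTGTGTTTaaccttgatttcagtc
Each gene had a TATAAA match towards its own start, 24 bases from the deposited HIST2H2BE start and 80 bases from the deposited HIST2H2AC start. The RefSeq start of HIST2H2AC lies inside this stretch, between that TATAAA match and the H1 box match. The octamer lay 38 bases from the HIST2H2BE start, and 3 CCAAT matches and 1 H1 box match lay in the same stretch.

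Of 11 divergent pairs of an H2A and an H2B gene in the clusters, 4 had both genes past the count rule. In HIST1H2BC and HIST1H2AC, 240 bases apart, HIST1H2AC fell with decitabine as given above, while HIST1H2BC had 0 to 14 counts a library and no comparison was called. In HIST1H2BG and HIST1H2AE, 275 bases apart, both were higher with decitabine against NT. HIST1H2AE, an H2A gene, was 0.309 and 0.298 CPM in NT, 0.698, 0.640 and 0.568 CPM in Doxo, 0.433, 0.400 and 0.611 CPM in Doxo+Cyta and 1.04, 0.825, 1.10 and 0.871 CPM in Doxo+Cyta+DAC, so that the decitabine libraries were above the rest. It rose by 1.65 against NT (SE 0.38, adjusted p = 0.00268) and by 0.99 against Doxo+Cyta (SE 0.31, adjusted p = 0.0128), the latter not called by DESeq2 (adjusted p = 0.0621). HIST1H2BG had 3 and 5 counts in NT and 9, 12, 22 and 5 in Doxo+Cyta+DAC, and, having reached 10 counts in this last group only, rose by 1.72 (SE 0.54, adjusted p = 0.0163), a call lost without NT replicate 1 (adjusted p = 0.176). In HIST1H2BJ and HIST1H2AG, 241 bases apart, no comparison was called for either gene, with 0.792 to 1.80 CPM for the first and 0.209 to 0.977 CPM for the second.

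HIST1H2BH, an H2B gene that ends at its stem-loop, had 3 and 5 counts in NT, 3, 6 and 4 in Doxo, 7, 1 and 11 in Doxo+Cyta and 6, 15, 19 and 8 in Doxo+Cyta+DAC. It would not have met the count rule without the Doxo+Cyta+DAC libraries, the group in which it was high. It was called higher there against NT (log2 1.75, SE 0.67, adjusted p = 0.0428) and against Doxo (1.45, SE 0.57, adjusted p = 0.0406). These calls were lost in 11 and 9 of 18 other settings, with adjusted p-values up to 0.272 and 0.102, and without Doxo replicate 4 the value against Doxo was 1.32 (SE 0.65, adjusted p = 0.096).

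The H3 genes went both ways. HIST1H3H, which has a GENCODE transcript ending 769 bases past the loop, was 0.874 and 0.834 CPM in NT, 1.40, 2.15 and 2.15 CPM in Doxo, 2.10 to 2.53 CPM in Doxo+Cyta and 1.10, 0.962, 1.15 and 0.950 CPM in Doxo+Cyta+DAC. Every drug-treated library was above NT, and the chemotherapy libraries above those with decitabine. It fell by 1.11 with decitabine against Doxo+Cyta (SE 0.24, adjusted p = 0.00116) and by 0.86 against Doxo (SE 0.24, adjusted p = 0.00774). HIST1H3C, which ends at its loop, had 8 and 4 counts in NT, 3, 1 and 3 in Doxo, 4, 5 and 4 in Doxo+Cyta and 7, 14, 16 and 10 in Doxo+Cyta+DAC. It met the count rule through the decitabine libraries alone, so these values describe a gene admitted by the group in which it was high. It was higher with decitabine than in Doxo+Cyta (log2 1.43, SE 0.44, adjusted p = 0.0117) and than in Doxo (2.28, SE 0.50, adjusted p = 0.00129), where 47 against 7 counts gave a ratio of 5.08 (95% exact interval 2.28 to 13.3, counting error only). HIST1H3D had 2 to 11 counts a library, was too sparse for the main test, and shares 47.2% of its exon bases with HIST1H2AD. Under the looser filter its 3 decitabine comparisons gave adjusted p-values of 0.169 to 0.773.

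HIST1H4I was the only H4 gene that met the count rule. It was 0.566 and 0.655 CPM in NT, 0.209, 0.349 and 0.315 CPM in Doxo, 0.494, 0.400 and 0.611 CPM in Doxo+Cyta and 0.857, 0.619, 0.210 and 0.712 CPM in Doxo+Cyta+DAC. The groups overlapped except that Doxo lay below NT and Doxo+Cyta, and no comparison was called (smallest adjusted p = 0.0961).

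Doxo and Doxo+Cyta differed from NT in few members. In Doxo against NT, HIST1H3H and HIST2H2BE were higher and 0 of 20 lower, where 10.7% of all genes were called (6.06% higher, 4.63% lower). HIST1H3H rose 2.22-fold (log2 1.15, SE 0.30, adjusted p = 0.0278) and HIST2H2BE 1.86-fold (0.89, SE 0.27, adjusted p = 0.0494). With Doxo replicate 4 left out 3 members were called, 22.2% of all genes were called, and the third member was HIST1H1C. In Doxo+Cyta against NT only HIST1H3H was called (2.65-fold higher, log2 1.40, SE 0.30, adjusted p = 0.0399). Of all genes 1.46% were called there (0.911% higher, 0.551% lower). HIST2H2BE had a log2 fold change of 1.15 in that comparison (SE 0.27, adjusted p = 0.0513). Fold changes were above 0 for 16 of 20 members in Doxo (median 0.57) and for 17 of 20 in Doxo+Cyta (median 0.65), beside medians of 0.01 and 0.01 over all genes; both comparisons share the 2 NT libraries. The calls of HIST1H3H and HIST2H2BE were lost without either NT library; over all settings tried the adjusted p reached 0.195 and 0.265 in Doxo, and 0.438 for HIST1H3H in Doxo+Cyta. Between Doxo and Doxo+Cyta, 0 of 20 members were called by edgeR (3.4% of all genes, 2.32% higher and 1.07% lower). At an unadjusted p under 0.05 by edgeR there were 0 members, beside 2673 of all 14164 tested genes. DESeq2 called 0 members, and its share over all genes is not given here.

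The members that ended at the stem-loop, without HIST1H1C, were also summed. The 8 tested ones summed to 2.37 and 3.096 CPM in NT, 2.44 to 2.84 CPM in Doxo, 2.41 to 3.80 CPM in Doxo+Cyta and 5.38 to 7.43 CPM in Doxo+Cyta+DAC. The 35 under the count rule summed to 1.95 and 2.38 CPM in NT, 3.14 to 3.85 CPM in Doxo, 3.27 to 3.73 CPM in Doxo+Cyta and 6.61, 7.15, 5.82 and 3.48 CPM in Doxo+Cyta+DAC. In the first sum the decitabine libraries were above all others, which the choice of members partly fixed. HIST1H3C, HIST1H2BG and HIST1H1B met the count rule through those libraries alone. HIST2H2AC, HIST1H2BH and HIST1H2AM would not have met it without them, and HIST1H1C, which fell, was left out. In the second sum, whose members were in turn limited to low counts, 3 of the 4 were above all others and replicate 33, the shallowest library, was not. The 11 tested members with a model past the loop summed to 43.0 and 46.3 CPM in NT, 50.4 to 61.5 CPM in Doxo, 55.4 to 63.0 CPM in Doxo+Cyta and 32.6 to 47.7 CPM in Doxo+Cyta+DAC, where every decitabine library was below every chemotherapy library and NT overlapped. Over all 73 members the sum, mostly HIST1H1C except in Doxo+Cyta+DAC, was 113.6 and 105.9 CPM in NT, 119.0, 217.1 and 226.3 CPM in Doxo, 176.7 to 203.8 CPM in Doxo+Cyta and 52.1 to 86.8 CPM in Doxo+Cyta+DAC.

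Of the 52 members under the count rule, 37 had counts, at most 13 in a library, and 15 were at 0 in every library. A count of 0 allowed up to 0.235 CPM in the shallowest library. For 7 of the 15, the zero may come from the counting, because their exons are shared with another gene name: HIST2H4A and HIST2H4B, HIST2H3A and HIST2H3C, and HIST2H2AA3 and HIST2H2AA4 each overlap a listed partner over 100% of their bases, and HIST1H2AD overlaps HIST1H3D over 85.3%. These zeros are not read as levels.

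Genes outside the clusters that take part in histone supply were described from 4 lists, beside the 60.3% of all genes called with decitabine against Doxo+Cyta (29.8% higher, 30.5% lower) and the 48.7% called against NT (24.9% higher, 23.7% lower). The replication-independent variants went in both directions with decitabine: of 10 tested, 4 were higher and 3 lower against Doxo+Cyta, and 3 and 3 against NT, while 8 of 20 in the table were at 0. H2AFZ, the variant H2A.Z found at promoters, was 516.7 to 556.8 CPM in the decitabine libraries and 186.9 to 283.0 CPM in the 8 others, a rise of 1.22 against Doxo+Cyta (SE 0.13, adjusted p = 3.06e-06). H2AFY, which encodes macroH2A, rose by 0.63 (SE 0.12, adjusted p = 0.000576). H3F3B, a source of the variant H3.3, was 456.6 to 535.7 CPM with decitabine and 709.5 to 1063 CPM in the others, and fell by 1.11 against Doxo+Cyta (SE 0.10, adjusted p = 1.01e-06).

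Of 33 tested genes for making histone mRNA, 22 were higher and 2 lower with decitabine against Doxo+Cyta (of all genes 29.8% and 30.5%), and 19 and 2 against NT (24.9% and 23.7%). NPAT was 45.2 to 62.7 CPM in the decitabine libraries and 14.3 to 33.5 CPM in the others, and rose by 1.37 against Doxo+Cyta (SE 0.19, adjusted p = 3.19e-05). SLBP, the stem-loop binding protein, rose by 0.41 (SE 0.09, adjusted p = 0.00147), from 131.1 to 144.6 CPM in Doxo+Cyta to 159.4 to 195.9 CPM. SRRT, a partner of the cap-binding complex, rose by 1.47 and CSTF2, a subunit of the cleavage stimulation factor, by 1.46. The lower genes were ZCCHC6, a uridylyltransferase of histone mRNA decay (−0.70), and MIF4GD, an SLBP partner in translation (−0.56). Of 26 histone chaperone genes, 20 were higher and 3 lower against Doxo+Cyta, beside the same shares of all genes: IPO4, an importin that carries H3 and H4, rose by 1.93 (SE 0.15), and CHAF1A of the CAF-1 complex by 1.28 (SE 0.21), while HJURP, the CENP-A chaperone, fell by 0.50 (SE 0.10).

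Of 42 tested S-phase genes, 38 were higher and 0 lower with decitabine against Doxo+Cyta (of all genes 29.8% and 30.5%), 39 and 0 against Doxo (29.1% and 30.4%) and 33 and 0 against NT (24.9% and 23.7%), with UHRF1 (2.29), CLSPN (2.42) and CDC6 (1.82) among the larger rises against Doxo+Cyta. In Doxo against NT, 0 were higher and 9 lower, where 6.06% of all genes were higher and 4.63% lower. Their summed level was 3886 and 3979 CPM in NT, 3829, 3009 and 3080 CPM in Doxo, 3143 to 3466 CPM in Doxo+Cyta and 6280 to 6662 CPM in Doxo+Cyta+DAC. Doxo replicate 4, at the NT level of HIST1H1C, was also at the NT level of this sum. Of the 8 HEL identity genes, 7 were lower with decitabine against Doxo+Cyta and 0 higher (30.5% and 29.8% of all genes). The part of these shifts in the histone values was not tested.

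The non-histone genes lying between the HIST1 members on chromosome 6 were compared as neighbours. Of 20 tested, 1 was higher and 9 lower with decitabine against Doxo+Cyta (median −0.34 on the log2 scale), and 1 and 8 against NT (−0.42). The 10 and 9 called of 20 made up no larger a share than over all genes (60.3% and 48.7%), but most of them were lower. Of all genes 29.8% were higher and 30.5% lower against Doxo+Cyta, and 24.9% and 23.7% against NT. The medians over all genes were 0.00 and 0.02. The difference from all genes was not tested. BTN3A1, a butyrophilin that takes part in γδ T cell recognition, fell by 2.33 against Doxo+Cyta (SE 0.16, adjusted p = 1.15e-07) and PRSS16, a protease gene, by 1.79 (SE 0.19, adjusted p = 3.06e-06). The pseudogene ZNF204P fell by 1.77 (SE 0.63, adjusted p = 0.0251), and ZNF322 was the gene that rose (0.60, SE 0.19, adjusted p = 0.0157). ABT1, which had risen against NT (0.38, adjusted p = 0.0318), was 0.22 against Doxo+Cyta and not called. The 16 tested HIST1 members gave 2 higher, 5 lower and a median of −0.04 in the same comparison. The spans of the HIST2, HIST3 and HIST4 clusters held no other tested gene.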

How the data were processed

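RNA was taken from 12 HEL cultures, and libraries were made with the TruSeq RNA kit and sequenced as 100 base pairs paired-end. The authors aligned reads to GRCh38 with Bowtie2 2.2.8 and deposited unnormalised counts per gene from featureCounts 1.6.0. Per the file headers, counting ignored strand and named no option for fragments aligned to several places or overlapping several genes. The count table held 26485 genes, of which 4 with a missing count were dropped.

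Counts were tested with edgeR 4.0.16 (filterByExpr, TMM, quasi-likelihood test, all 12 libraries in 1 fit, two-sided, Benjamini-Hochberg over 14164 genes, called at an adjusted p under 0.05 at any fold change); intervals are 95%. The labels name separate cultures as replicates. DESeq2 1.42.0, RLE scaling, 2 other filters, pairwise fits, a gene length offset and leaving out each library were alternatives, and the fit was tested on simulated data. CPM values are TMM scaled. Limits set by a count of 0 and exact intervals cover counting error only.

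The series text speaks of 3 untreated replicates, and 2 are analysed here. Members and lists were chosen with earlier results of these data known. Named were the 8 most abundant members, the 3 largest called changes a direction and comparison, called members of HIST2 to HIST4, all H1 genes that met the count rule, the 2 largest changes a list and direction against NT and Doxo+Cyta, and always SLBP, NPAT, H1F0, H2AFZ and H3F3B (a further gene of this rule is not reported here); other genes named were chosen after their values were seen. Sequences come from GRCh38 and RefSeq GRCh38.p14 (65 of 73 members had a promoter), transcripts from GENCODE 44; 4345 of 4346 deposited models overlapped the RefSeq gene of that name.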

Additional observations from a re-analysis of the deposited data

Results flagged for a closer look

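HIST2H2BC, 1 of 21 members tested in the 4 Doxo+Cyta+DAC libraries, had a library far from the others: replicate 31 was at 3.23 CPM and the other 3 at 2.06 to 2.203 CPM. Dixon's test at the 95% level marks about 1 in 20 groups by chance.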

How the results depend on the processing

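No paired analysis was possible because the groups share no replicate numbers in the labels. The 30 called values of members gave 529 values under 18 other settings: 454 kept their call, 75 lost it and 0 changed direction, and 19 of the 30 kept it under every setting that gave a value, among them all 3 of HIST1H1C with decitabine. The cause of lost calls was not tested. The share of all genes called also moved with the setting. Without Doxo replicate 4 it was 22.2% in Doxo against NT, beside 10.7% in the main fit. For the other settings this share is not given here, so the member counts that follow are not read as results about the members. In Doxo against NT, HIST1H3H and HIST2H2BE became 1 (HIST1H3H) with RLE scaling or under the count rule, 0 in a fit of these groups alone and 3 by DESeq2, with HIST1H1C added; with no filter both were lost and 1 other, HIST1H1C, was called. In Doxo+Cyta against NT the 1 higher member became 2 with no filter, 0 in a fit of these groups alone, 3 by DESeq2 and 0 with a length offset. In Doxo+Cyta+DAC against NT the 2 lower members became 1 with no filter, 1 in a fit of these groups alone and 1 by DESeq2. Leaving out each library in turn gave 0 to 3 higher in Doxo against NT, 0 to 3 in Doxo+Cyta against NT, 1 to 5 higher and 1 to 2 lower in Doxo+Cyta+DAC against NT, 2 to 4 higher and 6 to 8 lower against Doxo, 3 to 5 higher and 6 to 8 lower against Doxo+Cyta, and 0 between Doxo and Doxo+Cyta. Against NT, 1 member was higher without NT replicate 1 and 2 without Doxo+Cyta+DAC replicate 31 or 32; against Doxo+Cyta, 5 were higher without Doxo+Cyta replicate 20. With about 10 counts a library, changes of the sparse members that end at the stem-loop are measured with wide intervals, and with 2 NT libraries several calls against NT were lost without either of them, though those of HIST1H1C and HIST1H2AE with decitabine were kept.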
